A study of Mus musculus with 37 samples.

Results

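The AMPA and NMDA receptor subunits were followed across the temporal lobes of mice with and without Wfs1 on the strains C57 and 129. Their probe sets were taken by name, as every probe set of the array annotated to 1 of 10 symbols and to no other gene. Of the 10 genes, 9 had at least 1 such probe set, which gave 21 of the 34945 probe sets with a single symbol, 10 for AMPA and 11 for NMDA subunits. Grin1, which encodes the subunit that all NMDA receptors share, is not analysed here because no probe set carried its symbol in the annotation used. The 37 Affymetrix arrays formed 4 groups. There were 10 arrays of 129 KO, 9 of 129 WT, 9 of C57 KO and 9 of C57 WT, where KO mice lack Wfs1 and WT mice carry it. The strain field of the labels reads C57 or 129SV, and the design text writes C57B6 and 129S6. Wfs1 encodes wolframin, a membrane protein of the endoplasmic reticulum that is mutated in Wolfram syndrome. The labels give no sex, age or litter and do not describe the targeted allele. They do not say whether arrays stand for separate animals, and p-values refer to the spread between arrays, which may be technical.

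Glutamate acts on AMPA receptors to give the fast excitatory current of most synapses in the forebrain, and on NMDA receptors to give a slower, calcium-carrying current. AMPA receptors are tetramers of GluA subunits, encoded by Gria1 to Gria4. NMDA receptors join the glycine-binding subunit encoded by Grin1 with glutamate-binding GluN2 subunits (Grin2a to Grin2d) or with GluN3 subunits such as that of Grin3a. The mix of subunits sets calcium entry, current kinetics and trafficking, and the balance of NMDA receptor subunits changes as the forebrain matures.

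Values are log2 signals of single probe sets as the authors deposited them, and differences are log2 differences between group means. They come from a limma model over all 37 arrays and are called changed at a Benjamini-Hochberg adjusted p under 0.05 over 23321 tested probe sets. The filter kept probe sets with a group mean of 3.599 or more on the log2 scale. By this filter 19 of the 21 subunit probe sets, from 8 genes, were tested. The only probe set of Grin2a (1421616_at) and 1 of the 4 of Grin2b (1431700_at) lay below it. The levels of different probe sets are not compared with each other, since each has its own affinity.

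The genotypes were checked first on Wfs1. Its signal lay between 2.64 and 3.59 in 129 KO, against 9.11 to 9.52 in 129 WT, and between 2.75 and 3.60 in C57 KO, against 9.16 to 9.73 in C57 WT. The mean differences were -6.22 in 129 (SE 0.10, limma adjusted p = 3.53e-35) and -6.29 in C57 (SE 0.10, limma adjusted p = 6.36e-35). The labels do not tell whether this probe set reads the targeted exons. Markers of neurons were bright in every group, with a mean log2 level over 5 genes of 10.77 in 129 KO, 10.77 in 129 WT, 10.82 in C57 KO and 10.78 in C57 WT. Of 5 cerebellar markers, Pcp2, Cbln3 and Gabra6 lay below the filter, while Cbln1 ranged from 5.30 to 5.96 and Calb1, which forebrain neurons also express, from 9.68 to 10.38 over the arrays, and Ttr, a choroid plexus gene, ranged from 4.39 to 13.0. The residuals of 40 genes other than the subunits split the arrays into a set 1 of 19 and a set 2 of 18, each holding 4 or 5 arrays of every group. These sets came from the data and the labels do not name them. The split nonetheless followed the array numbers in the sample titles. Within each group, every array of set 1 had a smaller number than any array of set 2. The meaning of this numbering is not given, and its part in the split was not tested. Array 73 of 129 WT and array 59 of 129 KO deviated most from their groups, with root mean square residuals of 0.382 and 0.341 against a median of 0.195, and array 73 also had the highest actin 3' to 5' difference (2.76). They touch several subunit values below.

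In C57, no subunit probe set passed the test between KO and WT. Of the 19 tested probe sets 0 were called, against 0.0858% of all tested probe sets (20 of 23321), and 1 of 19 had an unadjusted p under 0.05, against 5.63% of all. The differences ran from -0.12 for Gria3 1420563_at to 0.24 for Grin2b 1422223_at, with adjusted p-values of 0.857 and above. Grin2b 1422223_at also gave the 1 unadjusted p under 0.05 and the highest interval end. It reached the filter through C57 KO alone (mean 3.603). The next highest difference was 0.13, for Grin2b 1457003_at. Every 95% confidence interval lay within 0.50 of 0, and 9 of the 19 lay within 0.25, so that folds below 0.740 or above 1.39 lay outside all 19 intervals. The median difference was 0.05 over the subunit probe sets and 0.01 over all tested probe sets.

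In 129, 0 of the 19 probe sets were called, against 0.00429% of all (1 of 23321, Wfs1 itself), and 0 of 19 had an unadjusted p under 0.05, against 2.19% of all. Here the differences ran from -0.13 for Grin2b 1457003_at to 0.26 for Grin3a 1458378_at. The intervals of 18 probe sets lay within 0.50 of 0, and that of Grin3a 1458378_at reached 0.57. Averaged over both strains, differences lay between -0.05 and 0.13, the upper end again from Grin2b 1422223_at. Here 0 of 19 were called (0.0257% of all) and 0 had an unadjusted p under 0.05 (4.49% of all). In that average 17 of the 19 intervals lay within 0.25 of 0. The KO difference itself was compared between the strains, as C57 minus 129, and 0 of 19 passed (0.0257% of all) with 0 at an unadjusted p under 0.05 (3.24% of all). That comparison was the least precise, with intervals reaching up to 0.74 from 0.

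Markers of striatum moved beside these values, with negative KO differences for all 8 measured markers in both strains and 0 of 8 called. Their mean log2 level ranged from 8.06 to 8.81 in 129 KO and from 8.39 to 8.96 in 129 WT. In C57 it ranged from 7.93 to 8.96 in KO and from 8.18 to 9.27 in WT. Its part in the subunit values was not tested. In bulk tissue, fewer cells of a type and less RNA per cell cannot be told apart.

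**Figure D1:**
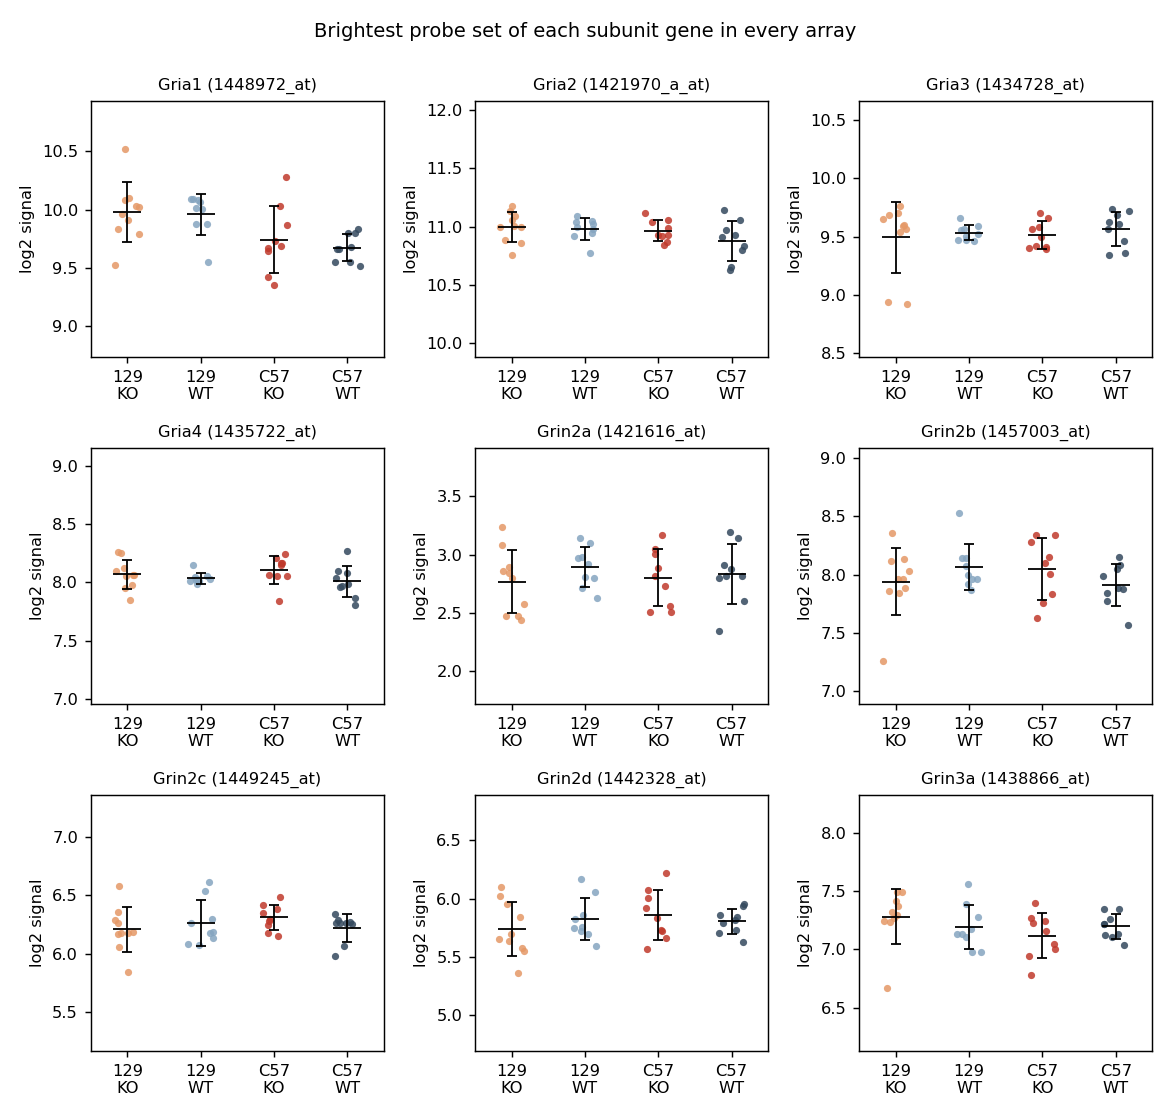
Log2 signal of the brightest probe set of each measured subunit gene in the 37 arrays, 1 point per array, with bars for the group mean and SD. Groups overlap in all 9 genes. The Gria1 means on 1448972_at are higher in both 129 groups than in the C57 groups, which its other probe set does not show.

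Gria1 encodes GluA1, the AMPA subunit whose synaptic delivery and phosphorylation have been studied most in long-term potentiation. On its brighter probe set, 1448972_at, the lowest, median and highest log2 signals were 9.52, 9.99 and 10.52 in 129 KO and 9.55, 10.02 and 10.09 in 129 WT. In C57 they were 9.36, 9.69 and 10.28 in KO and 9.52, 9.67 and 9.83 in WT. KO and WT overlapped in each strain, with differences of 0.02 (SE 0.10) in 129 and 0.07 (SE 0.10) in C57. The other probe set, 1435239_at, averaged 9.42 in 129 KO, 9.37 in 129 WT, 9.53 in C57 KO and 9.43 in C57 WT. Its KO differences were 0.05 (SE 0.07) in 129 and 0.09 (SE 0.08) in C57.

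Gria2 encodes GluA2, the subunit that makes AMPA receptors nearly impermeable to calcium once its transcript is edited. Its brightest probe set, 1421970_a_at, had lowest, median and highest signals of 10.76, 11.003 and 11.17 in 129 KO and of 10.77, 10.999 and 11.09 in 129 WT. The values were 10.84, 10.93 and 11.12 in C57 KO and 10.63, 10.91 and 11.14 in C57 WT. The 4 groups lay in a narrow band, with KO differences of 0.02 (SE 0.06) in 129 and 0.08 (SE 0.06) in C57. On 1434146_at the KO differences were -0.0011 in 129 and -0.03 in C57, and on 1453098_at they were -0.0074 in 129 and 0.12 in C57.

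Gria3, on the X chromosome, encodes GluA3. Its brightest probe set, 1434728_at, had lowest, median and highest signals of 8.92, 9.59 and 9.76 in 129 KO and of 9.46, 9.52 and 9.66 in 129 WT. In C57 KO they were 9.39, 9.49 and 9.70, and in C57 WT 9.35, 9.61 and 9.73. The low end of 129 KO was 2 arrays, 53 at 8.92 and 59 at 8.94, with the other 8 at 9.54 or above. KO minus WT was -0.04 (SE 0.08) in 129 and -0.05 (SE 0.09) in C57. The second probe set, 1420563_at, had the widest residual spread of the tested subunit probe sets (SD 0.344) and KO differences of 0.17 (SE 0.15) in 129 and -0.12 (SE 0.15) in C57. Without array 73 the 129 difference on it was 0.02. Of the sex-linked genes, Xist ranged from 3.98 to 4.92, Eif2s3y from 5.84 to 7.04 and Kdm5d from 4.44 to 5.62 over the 37 arrays, and 0 of these 3 passed in either KO comparison or between the strains.

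Gria4 encodes GluA4, an AMPA subunit of fast kinetics that is abundant in interneurons and early in life. Its brightest probe set, 1435722_at, had the narrowest residual spread of the tested subunit probe sets (SD 0.113). Its lowest, median and highest signals were 7.85, 8.06 and 8.26 in 129 KO, 7.98, 8.02 and 8.14 in 129 WT, 7.84, 8.15 and 8.24 in C57 KO and 7.81, 7.99 and 8.27 in C57 WT. Of the C57 KO arrays 8 of 9 lay above the C57 WT median, as did 8 of 9 arrays of 129 WT. Such counts were not taken over all probe sets. The KO difference in C57 was 0.10 (SE 0.06, 95% interval -0.02 to 0.21, limma adjusted p = 0.94). In 129 it was 0.03 (SE 0.06). The other probe sets, 1440891_at and 1421351_at, had KO differences of 0.11 and 0.10 in 129 and of -0.03 and -0.07 in C57. Single arrays of 129 WT set these 129 values, which were -0.02 on 1440891_at without array 73 and 0.02 on 1421351_at without array 74.

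Among the NMDA subunits, Grin2a encodes GluN2A, which gains ground over GluN2B as the forebrain matures. Its probe set lay near background, with medians of 2.83 in 129 KO, 2.92 in 129 WT, 2.82 in C57 KO and 2.82 in C57 WT, all below the filter, and it was left out of the main test.

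Grin2b encodes GluN2B, the subunit that dominates NMDA receptors early in forebrain life and binds the kinase CaMKII. On 1457003_at its lowest, median and highest signals were 7.26, 7.96 and 8.36 in 129 KO and 7.87, 8.00 and 8.53 in 129 WT. They were 7.62, 8.10 and 8.34 in C57 KO and 7.57, 7.89 and 8.15 in C57 WT. KO minus WT was -0.13 (SE 0.11) in 129 and 0.13 (SE 0.11) in C57, and the difference between these, 0.26 (SE 0.15, 95% interval -0.04 to 0.57), did not pass (limma adjusted p = 1). The lowest 129 KO array was 59 and the highest 129 WT array was 73, and leaving both out moved the 129 difference to 0.0067. The dim probe set 1422223_at had the lowest unadjusted p of the subunits for KO in C57, with medians of 3.61 in C57 KO and 3.42 in C57 WT and a difference of 0.24 (SE 0.12, limma adjusted p = 0.857). It reached the filter through C57 KO alone, whose mean was 3.603, so its place in the test depended on the group where it was high. The third tested probe set, 1442370_at, differed by -0.0038 in 129 and by -0.05 in C57.

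Grin2c encodes GluN2C, best known from cerebellar granule cells, and Grin2d encodes GluN2D, a subunit of slow kinetics found in interneurons, diencephalon and brainstem. Grin2c 1449245_at had lowest, median and highest signals of 5.84, 6.18 and 6.58 in 129 KO, 6.07, 6.19 and 6.62 in 129 WT, 6.15, 6.30 and 6.49 in C57 KO and 5.98, 6.26 and 6.34 in C57 WT. Its KO differences were -0.05 (SE 0.07) in 129 and 0.09 (SE 0.08) in C57. Grin2d 1442328_at ran through 5.37, 5.68 and 6.10 in 129 KO, 5.59, 5.75 and 6.17 in 129 WT, 5.57, 5.84 and 6.22 in C57 KO and 5.63, 5.82 and 5.95 in C57 WT. The differences were -0.09 (SE 0.09) in 129 and 0.05 (SE 0.09) in C57. All groups of both genes overlapped.

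Grin3a encodes GluN3A, a glycine-binding subunit that lowers the calcium permeability of NMDA receptors. On 1438866_at its lowest, median and highest signals were 6.67, 7.305 and 7.495 in 129 KO, 6.97, 7.13 and 7.56 in 129 WT, 6.78, 7.16 and 7.40 in C57 KO and 7.04, 7.22 and 7.35 in C57 WT. The KO differences had opposite signs, 0.09 (SE 0.09) in 129 and -0.08 (SE 0.09) in C57. They differed from each other by -0.17 (SE 0.12, limma adjusted p = 1). The opposite signs were not shared by 1436575_at, with KO differences of 0.02 (SE 0.07) in 129 and 0.06 (SE 0.07) in C57. On 1458378_at, which had the largest KO difference in 129, 1 array of 129 WT (73) read 4.07 while the other 8 lay between 5.35 and 5.80. The 129 difference there was 0.26 (SE 0.15) with array 73 and 0.10 without it.

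**Figure D2:**
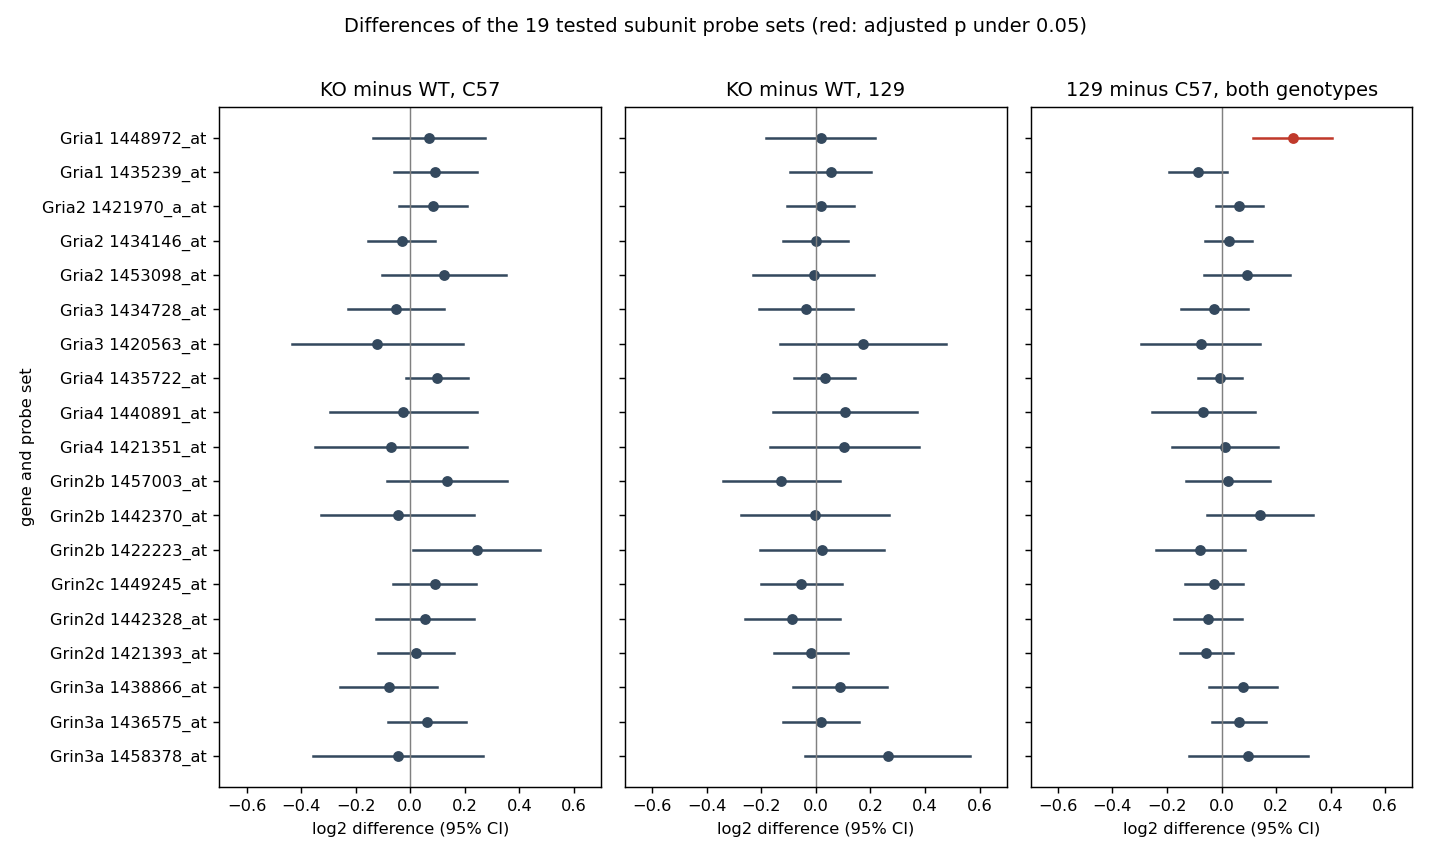
Log2 differences of the 19 tested subunit probe sets with 95% confidence intervals, in 3 panels: the KO effect in C57, the KO effect in 129, and 129 minus C57 over both genotypes. Only Gria1 1448972_at, in the strain panel, passed an adjusted p of 0.05.

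Between the strains, Gria1 was the only subunit gene with a called probe set. Over both genotypes 129 exceeded C57 by 0.26 on 1448972_at (SE 0.07, 95% interval 0.12 to 0.40, limma adjusted p = 0.0158), a fold of 1.20. This was 1 of 19 subunit probe sets called, where 7.2% of all tested probe sets were called and 3.16% were called higher, and the unadjusted count was also 1 of 19, against 17.1% of all. The share of subunit probe sets called was thus near that of the whole array. The 19 arrays of 129 averaged 9.97 ± 0.216 and the 18 of C57 averaged 9.71 ± 0.217 (SD). Of the 129 arrays, 17 of 19 lay above the C57 median, and the ranges overlapped. Within KO the difference was 0.23 (SE 0.10, limma adjusted p = 0.274), with 0 of 19 subunit probe sets called against 3.01% of all and 1 of 19 at an unadjusted p under 0.05 against 12.2%. Within WT it was 0.29 (SE 0.10, limma adjusted p = 0.161), with 0 of 19 called against 2.02% of all and 1 of 19 at an unadjusted p under 0.05 against 11.4%. These strain comparisons use the same arrays as the KO comparisons.

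The other Gria1 probe set was not called between the strains. On 1435239_at the 129 arrays averaged 9.40 ± 0.198 and the C57 arrays 9.48 ± 0.104 (SD, n = 19 and 18), a difference of -0.09 (SE 0.05, limma adjusted p = 0.458), and 6 of 19 arrays of 129 lay above the C57 median. The mean of both probe sets differed by 0.09 (SE 0.06, limma adjusted p = 0.463), so the call rests on 1448972_at. The log2 signal of 1448972_at minus that of 1435239_at was taken within each array (an added step, picked with the values in view). It was 0.558 ± 0.169 in 129 KO (n = 10), 0.594 ± 0.086 in 129 WT (n = 9), 0.219 ± 0.227 in C57 KO (n = 9) and 0.241 ± 0.121 in C57 WT (n = 9, SD). The lowest value was 0.465 in 129 WT, against a highest of 0.465 in C57 WT, while KO arrays overlapped, with a lowest of 0.317 in 129 KO and a highest of 0.663 in C57 KO. The strains differed by 0.346 on this scale, by 0.358 in array set 1 and by 0.331 in array set 2, values that carry no test because the step was picked for this pattern. The ratio does not show which probe set reads the transcript.

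The Gria1 call was lost in array set 2 alone, where the difference was 0.26 (SE 0.11, limma adjusted p = 0.221), and held in array set 1 alone at 0.25 (adjusted p = 0.0484). Beside it, all 5 oligodendrocyte markers were lower in 129, 2 of them called. Their mean log2 level ranged from 8.83 to 9.46 in 129 KO, 8.90 to 9.40 in 129 WT, 8.75 to 9.70 in C57 KO and 9.06 to 9.74 in C57 WT. Of the 5 microglia markers 4 were lower in 129, 2 of them called. Of 5 thalamus markers 3 were lower, with Zic1 called, and of 6 astrocyte markers 5 were lower with 0 called. Of 5 excitatory neuron markers 0 were called. Over all tested probe sets 4.05% were called lower in 129. The part of these cell types and of tissue make-up in the Gria1 signal was not tested.

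**Figure D3:**
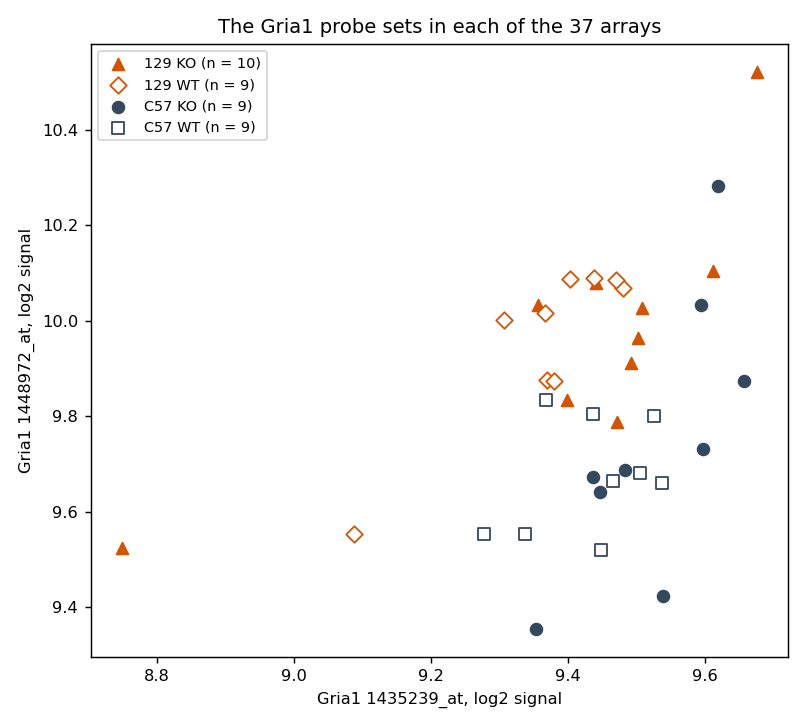
Log2 signals of the Gria1 probe sets 1435239_at (horizontal) and 1448972_at (vertical), 1 point for each of the 37 arrays. At a given 1435239_at signal the 129 arrays lie higher on 1448972_at than most C57 arrays, a mean gap of 0.346 within arrays.

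The order of the 4 group means of the brightest probe sets differed from gene to gene, and no pair of KO and WT groups of a strain, or of groups of a genotype, was free of overlap on any of the 21 probe sets. Overlap was not counted over all probe sets, so it is not a trait of the subunits. For Gria1 the order was 129 KO (9.98), 129 WT (9.96), C57 KO (9.75) and C57 WT (9.68), and for Gria2 it was the same order over a span of 0.12. Gria4 ran from C57 KO (8.11) through 129 KO and 129 WT to C57 WT (8.01). Grin2c and Grin2d shared an order, with C57 KO first (6.31 and 5.86), then 129 WT and C57 WT, and 129 KO last (6.21 and 5.74). On the brightest probe set of each of the 9 genes, neighbouring means differed by less than the larger of their SDs. The residual SD of the 19 probe sets had a median of 0.190, against 0.174 over all tested probe sets.

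Some subunit probe sets differed more between the array sets than between KO and WT. With the group means kept, set 2 exceeded set 1 by 0.40 on Gria3 1420563_at, whose medians were 7.58 in set 2 and 7.20 in set 1, a difference larger in size than that of 97% of tested probe sets. Gria4 1421351_at was higher in set 2 by 0.27, Grin2b 1422223_at by 0.25 and Gria1 1448972_at by 0.18. All 3 Gria2 probe sets were lower in set 2, by -0.10, -0.08 and -0.15. The median size was 0.057 over the subunit probe sets and 0.064 over all. The other probe set of Gria3 differed by 0.02 and that of Gria1 by -0.0034, and the other tested probe sets of Grin2b differed by -0.05 each. These values describe the sets and carry no test.

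**Figure D4:**
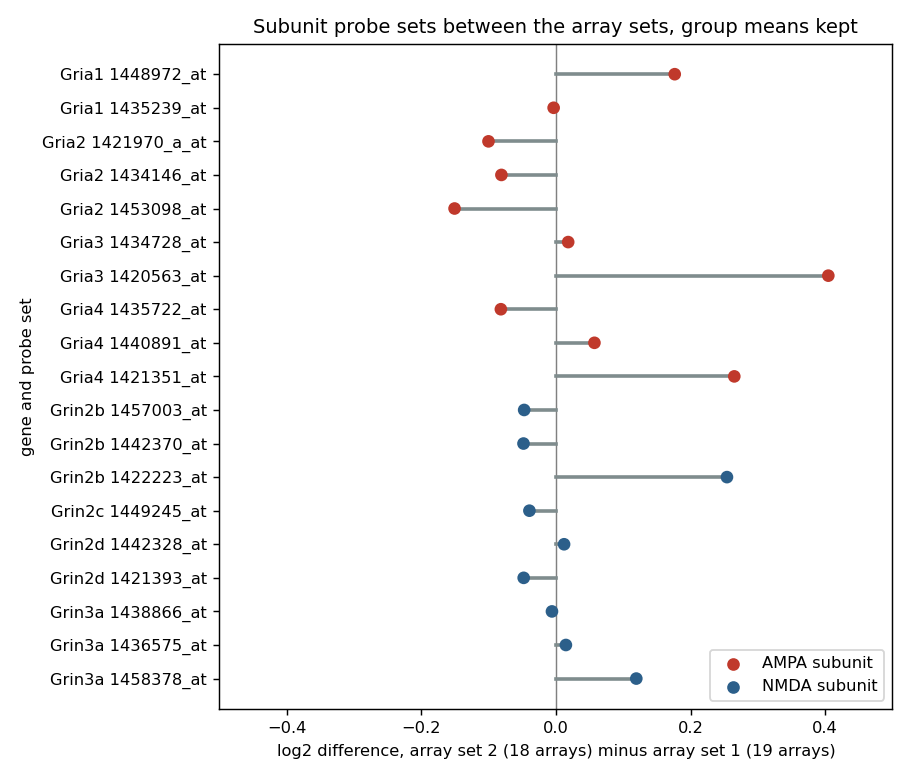
Log2 difference between array set 2 (18 arrays) and array set 1 (19 arrays) for each tested subunit probe set, with the group means kept. Gria3 1420563_at stands furthest to the right at 0.40, and the 3 Gria2 probe sets lie to the left of 0.

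The subunits were then compared with each other across arrays, on the brightest probe set of each of the 8 tested genes and with the group means taken off. Of 28 pairs, 25 had a positive Pearson correlation, from -0.339 for Gria2 with Grin2d to 0.693 for Grin2c with Grin2d. By permutation within groups, 4 pairs passed after adjustment over the 28 for Pearson's r and 3 for Spearman's rho. The share of pairs of other genes that would pass was not measured, so these counts cannot be called particular to the subunits. Grin2c and Grin2d gave r = 0.693 (permutation p = 2e-05, adjusted p = 0.00056) and rho = 0.574 (permutation p = 0.00036, adjusted p = 0.00966). Without the 2 arrays furthest on the first gene, 57 and 59 of 129 KO, r was 0.584. It was 0.671 in array set 1 and 0.726 in array set 2. By group it was 0.84 in 129 KO, 0.888 in 129 WT and 0.892 in C57 KO, but -0.602 in C57 WT, so the relation did not hold in that group.

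Grin2b and Grin2c gave r = 0.678 (permutation p = 8e-05, adjusted p = 0.00112) and rho = 0.554 (permutation p = 0.00069, adjusted p = 0.00966), and r was 0.522 without arrays 59 and 73. It was 0.723 in array set 1, 0.648 in array set 2 and -0.114 in C57 WT alone. Grin2b and Grin2d gave r = 0.557 (permutation p = 0.00115, adjusted p = 0.0107) and rho = 0.452 (permutation p = 0.00905, adjusted p = 0.0507), and r was 0.397 without the same 2 arrays. It was 0.538 in array set 1, 0.582 in array set 2 and -0.154 in C57 WT alone. These 3 NMDA subunits also correlated with the actin 3' to 5' difference of the arrays, a sign of RNA quality. Here r was 0.63 for Grin2b, 0.707 for Grin2c and 0.579 for Grin2d. Arrays 73 of 129 WT and 10 of C57 KO read highest in their groups on all 3, and r without them was not measured. They also had the highest values of that actin difference, 2.76 and 1.94. With that difference taken off, the 3 correlations were 0.492 for Grin2c with Grin2d, 0.424 for Grin2b with Grin2c and 0.304 for Grin2b with Grin2d. Other pairs went the opposite way, to 0.761 for Gria1 with Grin2b, whose r was 0.479 before, and to 0.58 for Gria2 with Gria4. For the AMPA subunits r with it ran from -0.166 for Gria1 to 0.293 for Gria4. The part of RNA quality in these correlations was not tested beyond that.

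Gria2 and Gria4 were the AMPA pair that passed, with r = 0.517 (permutation p = 0.00318, adjusted p = 0.0223) and rho = 0.462 (permutation p = 0.00868, adjusted p = 0.0507). It was 0.372 without the 2 arrays furthest on Gria2, 0.172 in array set 1 and 0.59 in array set 2, so it did not hold in set 1. Grin2b and Grin3a passed by rank alone, with rho = 0.487 (permutation p = 0.00425, adjusted p = 0.0397) and r = 0.367 (permutation p = 0.0522, adjusted p = 0.14).

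**Figure D5:**
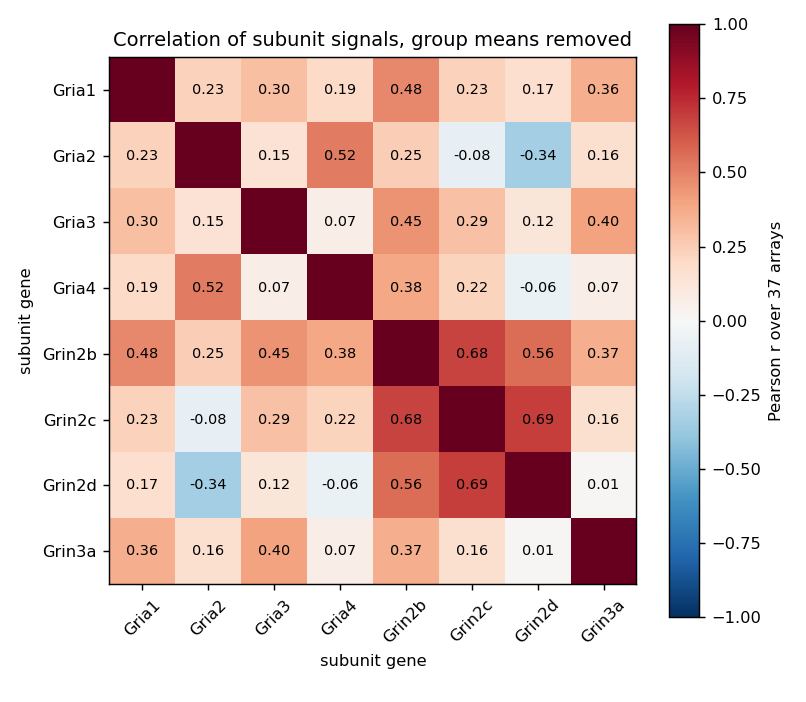
Pearson correlations between the brightest probe sets of 8 subunit genes over 37 arrays, after removal of the group means. The block of Grin2b, Grin2c and Grin2d is the darkest, at 0.68, 0.56 and 0.69.

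The promoters of the pairs that moved together are shown for the 4 genes that the RefSeq table (GRCm38.p6) holds among them, as the 250 bases before the annotated start of the transcript, 5' to 3' on the gene's strand. Grin2c lies at chr11:115267244-115267493, Grin2d at chr7:45866682-45866931, Gria2 at chr3:80802836-80803085 and Gria4 at chr9:4796235-4796484, all on the minus strand. Capitals mark GGGCGG, the core of a GC box.
Grin2c: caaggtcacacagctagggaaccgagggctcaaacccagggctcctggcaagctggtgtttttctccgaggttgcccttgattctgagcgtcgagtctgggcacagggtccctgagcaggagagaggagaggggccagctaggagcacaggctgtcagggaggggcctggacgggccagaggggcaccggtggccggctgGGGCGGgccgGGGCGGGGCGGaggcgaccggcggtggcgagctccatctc
Grin2d: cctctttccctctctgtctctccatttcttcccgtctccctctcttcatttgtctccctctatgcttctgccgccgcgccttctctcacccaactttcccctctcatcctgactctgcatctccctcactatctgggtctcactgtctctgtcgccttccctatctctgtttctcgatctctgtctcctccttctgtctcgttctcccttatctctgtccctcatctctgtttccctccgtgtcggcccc
Gria2: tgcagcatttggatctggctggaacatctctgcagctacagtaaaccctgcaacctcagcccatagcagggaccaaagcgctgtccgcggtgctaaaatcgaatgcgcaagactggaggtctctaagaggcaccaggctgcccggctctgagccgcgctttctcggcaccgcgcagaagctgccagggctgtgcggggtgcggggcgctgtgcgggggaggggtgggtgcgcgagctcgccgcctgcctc
Gria4: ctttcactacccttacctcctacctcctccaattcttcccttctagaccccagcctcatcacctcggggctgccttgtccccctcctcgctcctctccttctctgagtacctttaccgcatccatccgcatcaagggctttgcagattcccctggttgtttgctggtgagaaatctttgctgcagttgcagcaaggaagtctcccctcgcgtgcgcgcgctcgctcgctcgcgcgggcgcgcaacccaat
GGGCGG was searched on both strands with overlaps counted. The Grin2c window held 3 matches, starting at bases 201, 211 and 216, and those of Grin2d, Gria2 and Gria4 held 0, so the Grin2 pair did not share these letters. Of all 32851 promoters in the table, 32.7% held at least 1 match in a window of this length and 8.5% held 3 or more. The palindrome TGACGTCA, the full cyclic AMP response element, was in 0 of the 4 windows and in 1.55% of all. The windows had GC shares of 68.8% for Grin2c, 54.4% for Grin2d, 64.8% for Gria2 and 58.8% for Gria4, above the median of 52.4%, and held 15, 9, 19 and 16 CpG pairs against a median of 6.

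Probe sets of the same gene did not always move together, as residual correlations over the 37 arrays show without a test. The 2 of Gria1 had r = 0.69, those of Gria2 0.413 to 0.67 and the brighter 2 of Grin3a 0.754. The brightest probe set of Gria4 had r = -0.06 and -0.196 with the other 2, which had 0.557 with each other. The 3 tested probe sets of Grin2b lay between -0.09 and 0.179. The probe sets of Grin2d had r = 0.257 with each other and those of Gria3 0.232, and Grin3a 1458378_at had 0.143 and 0.217 with its other 2. A correlation of Grin2b, Grin2d, Gria3 or Gria4 with another gene therefore belongs to the probe set used.

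For each subunit the 3 most similar of 13078 genes were taken by Pearson's r of their residuals over the 37 arrays, as a description. Gria1 was nearest to Abi2 (0.76), Crim1 (0.754) and Nos1 (0.753), and Gria2 to Pura (0.89), Pgm2l1 (0.837) and 4930428B01Rik (0.794). Gria3 was nearest to Nr2f1 (0.808), Gabra2 (0.805) and Pcdh8 (0.802), and Gria4 to R3hdm1 (0.805), Phf6 (0.784) and Slc16a4 (0.767). Among NMDA subunits, Grin2b was nearest to Ncam1 (0.877), Chd5 (0.866) and Trpm3 (0.852), and Grin2c to Iqsec2 (0.808), Ncdn (0.804) and Nrgn (0.8). Grin2d was nearest to Prrt1 (0.838), Ighmbp2 (0.79) and Rph3a (0.781), and Grin3a to Baiap3 (0.839), Tmem255a (0.812) and Blcap (0.782). All these genes share arrays, labelling and RNA quality with the subunits.

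The partners of the receptors were read from a list of 73 genes, of which 68 had a probe set and 65 were tested on 144 probe sets. It holds AMPA auxiliary subunits, pentraxins, scaffolds, kinases and editing enzymes, kainate and delta relatives, and enzymes and carriers that supply the co-agonists glycine and D-serine. For KO minus WT 0 of 144 were called in 129, in C57, in their mean or in the difference between strains. At an unadjusted p under 0.05 there were 4 in 129 (2.78% against 2.19% of all), 6 in C57 (4.17% against 5.63%), 6 in their mean (4.17% against 4.49%) and 5 in the difference between strains (3.47% against 3.24%). The median KO difference was 0.01 in 129 and 0.02 in C57, where all tested probe sets had 0.00 and 0.01.

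Between the strains 13 of the 144 were called over both genotypes, 5 higher and 8 lower in 129, which is 9.03% against 7.2% of all. By group these were 2 of 30 AMPA auxiliary, 2 of 47 scaffold, 6 of 28 kinase and editing, 2 of 18 kainate and delta and 1 of 17 co-agonist probe sets, and 0 of 4 pentraxin probe sets. Phgdh, the first enzyme of serine synthesis, was lower by 2.51 on 1454714_x_at (SE 0.56, limma adjusted p = 0.0027), with medians of 3.92 in 129 and 8.44 in C57. Single arrays there ranged from 3.19 to 8.30 in 129 and from 3.17 to 8.85 in C57. The other 3 Phgdh probe sets did not show a difference of that size. Their medians were 7.76, 8.0 and 6.89 in 129 and 7.89, 8.13 and 6.98 in C57, with overlapping ranges. Grik1, a kainate receptor subunit, is among the 13 on 1439987_at, which reached the filter through C57 KO alone (mean 3.79). Its means were 2.28 in 129 KO, 2.23 in 129 WT and 3.30 in C57 WT, all below the filter, so the size of its difference is not given, and its other probe set had medians of 5.39 in 129 and 5.38 in C57. Camk2d, a CaMKII isoform, was lower by 0.55 on 1459457_at (adjusted p = 0.028), while the medians of its other 4 probe sets were 7.52, 7.07, 6.75 and 5.4 in 129 and 7.51, 6.90, 6.68 and 5.26 in C57. Frrs1l, an AMPA receptor assembly factor, was lower by 0.46 on 1437640_at (adjusted p = 0.0117). The medians of Frrs1l were 8.22 in 129 and 8.58 in C57 on that probe set, and 9.33 in 129 and 9.36 in C57 on its other one. Adarb2, a brain relative of the editing enzymes, fell by 0.44 on 1458670_at and rose by 0.30 on 1458112_at, so its probe sets went opposite ways. Epb41l1, a cytoskeletal protein that binds GluA1, rose by 0.39 on 1421090_at (SE 0.12, adjusted p = 0.029), while its other probe sets had medians of 8.12 and 8.83 in 129 and of 8.22 and 8.74 in C57. Within KO 4 partner probe sets were called (2.78% against 3.01% of all). They were on Phgdh (-3.03, again 1454714_x_at), Epb41l1 (0.60), Prkca, a protein kinase C (-0.21), and the Grik1 probe set that C57 KO alone carried past the filter. The other Prkca probe sets had medians of 3.87 and 6.13 in 129 and of 3.60 and 5.96 in C57. Within WT 0 of 144 were called (2.02% of all), with 17 at an unadjusted p under 0.05 (11.8% against 11.4% of all).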

How the data were processed

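The authors deposited a table of log2 probe set signals for 37 Affymetrix arrays, which were used as deposited, with no scaling and no pseudocount. MAS5 and GCRMA are named per the submitters' processing notes, without version or role. Array medians lay between 4.303 and 4.359. Of 45101 probe sets 64 were controls, and of the other 45037, 34945 had 1 symbol in the platform annotation, 932 several and 9160 none; only single symbols were used. limma 3.58.1 in R 4.3.3 was fitted with 1 mean per group to 23321 probe sets, those with a group mean at or above the 40th percentile of probe set means (log2 3.599), with 2-sided tests and Benjamini-Hochberg adjustment. The limma fit was also run on simulated data with independent normal noise for each probe set. That simulation held no array sets and no deviating arrays, so it does not cover these traits of the data. Correlations and plots used Python 3.11.15, NumPy 2.4.6, SciPy 1.17.1, pandas 2.3.3 and matplotlib 3.10.9. Permutation tests were 2-sided, with 100000 resamples. All subunits were named, each with values by group on its brightest probe set. Of the partner list, called genes were named, at most 6 per contrast by size, and the 3 nearest genes per subunit. The subunits and lists were chosen with earlier results of these data known. The number of arrays limits the precision. Alternatives were other filters, scalings, probe set rules, variance models, array weights, array sets, a residual component, fewer groups and each array left out. The actin covariate, leaving out arrays 59 and 73 together, the Gria1 within-array difference and the added correlation checks were chosen after seeing the data. Grin1 was not analysed here.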

Additional observations from a re-analysis of the deposited data

Results flagged for a closer look

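In 14 of the 84 combinations of 21 subunit probe sets and 4 groups, 1 array lay far from the rest of its group by Dixon's gap test, where chance gives about 1 in 20. These values came from 7 arrays, 6 of them from array 73 of 129 WT and 3 from array 59 of 129 KO, the arrays with the largest residuals over all tested probe sets. The share of such values over all tested probe sets was not measured, and the 84 combinations share arrays. The count is thus not shown to be particular to the subunits.

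Array 59 of 129 KO read 8.75 on Gria1 1435239_at, with the other 129 KO arrays between 9.36 and 9.68. It read 8.07 on Gria2 1453098_at (the others 8.84 to 9.34) and 7.26 on Grin2b 1457003_at (the others 7.84 to 8.36). Array 53 of 129 KO read 6.67 on Grin3a 1438866_at, against 7.24 to 7.495 in the rest.

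Array 73 of 129 WT was low on Gria1 1448972_at (9.55, the others 9.87 to 10.09), on Gria1 1435239_at (9.09, the others 9.31 to 9.48) and on Gria3 1420563_at (6.02, the others 6.98 to 7.85). It was also low on Gria4 1440891_at (5.34, the others 6.12 to 6.62) and on Grin3a 1458378_at (4.07, the others 5.35 to 5.8), but high on Grin2b 1457003_at (8.53, the others 7.87 to 8.15). Array 77 of 129 WT read 8.14 on Gria4 1435722_at, where the rest of the group lay between 7.98 and 8.06.

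In C57 KO, array 17 read 7.84 on Gria4 1435722_at (the others 8.05 to 8.24) and array 10 read 5.7 on Gria4 1440891_at (the others 6.38 to 6.81). In C57 WT, array 29 read 6.92 on Grin3a 1436575_at, with the others between 6.41 and 6.66.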

How the results depend on the processing

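The count of subunit probe sets called for KO minus WT in 129, in C57, in their mean and in the difference between strains was 0 under every alternative run. The strain count over both genotypes was 1 in the main test and 0 when the probe sets of a gene were averaged and with array set 2 alone, the last using 18 arrays. The strain count within WT was 0 in the main test and 1 with array weights, with only the groups of the contrast and with arrays 59 and 73 left out together; Gria1 1448972_at then differed by 0.32 (limma adjusted p = 0.00858), 0.29 (adjusted p = 0.0303) and 0.34 (adjusted p = 0.0431). The cause was not tested. With each of the 37 arrays left out in turn the counts stayed at 1 for strain over both genotypes and at 0 for the other comparisons, while calls over all tested probe sets ranged from 1533 to 1970 for strain, 11 to 23 for KO in C57 and 1 to 2 for KO in 129. Of 1707 values of single probe sets under 14 alternatives, 1703 stayed on their side of the threshold, the other 4 being Gria1 1448972_at between strains. In the main test the lowest limma adjusted p not called was 0.161, for Gria1 1448972_at within WT. Most values thus had little room to cross, and the count says little about them. Values that were not called changed sign in 39 cases with array set 1 alone, 32 with array set 2 alone, 23 with array weights, 22 without arrays 59 and 73, 12 with the actin covariate, 3 with array set as a block, 3 with median centring and 2 with quantile normalization. The first residual component cannot move a difference, since it is fitted to values with group means removed. No paired analysis was possible because the groups share no sample number. Fits with only the groups compared do not apply to averages over strains or genotypes. Signals near 3.599, as on Grin2b 1422223_at, or below it, as on Grin2a, are not separated from background.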
